A study of Homo sapiens with 8 samples.

Results

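Kinesins are motor proteins that walk along microtubules with energy from ATP. Human cells hold a large family of KIF genes. The genes described here are the 41 of 30755 gene symbols of the RNA-seq table that carry a kinesin motor name, KIF with a number and an optional letter from A to C, or KIFC with a number. The names were matched by symbol, and KIF26A was singled out because it was selected on its fall in the comparison reported below, so its values are a description with no test. The RNA-seq libraries are 4 of the 8 samples of the series, which also holds ChIP-seq and 4C libraries not used here. They come from ESO26, an established cell line of oesophageal adenocarcinoma grown in RPMI-1640 medium with serum, with 2 libraries of cells given a small interfering RNA (siRNA) against HNF4A and 2 libraries of control cells. The labels do not say what siRNA or treatment the control cells received, how long after it RNA was taken, or whether the libraries came from separate cultures. P-values therefore measure the spread between these libraries, which may be technical. The design text of the series speaks of triplicates, and 2 libraries per group are analysed here. HNF4A is a DNA-binding transcription factor of liver, gut and other endodermal tissues.

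Some kinesins build and move the mitotic spindle or help to separate the daughter cells, and their mRNAs are high in dividing cells. Others carry vesicles, organelles and RNA along microtubules, and a further group works in the cilium, the antenna-like projection of many cells. KIF26A and KIF26B have an atypical motor domain: KIF26A binds microtubules but lacks ATPase activity, and it is known as a brake on growth factor signalling through the adaptor GRB2 in neurons of the gut wall. The genes are described below by these roles.

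The upstream sequences of KIF26A and of mitotic kinesins are shown first, because the promoters of genes that act in mitosis are known for a pair of short elements. The 8 mitotic ones printed were picked after the elements had been searched: they are the 3 called genes, the others of the 5 with both elements, and KIFC1, which has the highest log2 fold change among them. Mitotic kinesins with no CCAAT in the window, KIF15 and KIF2C, are not printed. The paired elements are CCAAT boxes, bound by the factor NF-Y, and the cell cycle homology region (CHR), bound by the DREAM and MuvB complexes. The sequences are from RefSeq (GRCh38.p14), run 5′ to 3′ in the direction of the gene and end at the base before the listed transcription start. Capitals mark CCAAT and the CHR letters TTTGAA or TTCGAA, each searched on both strands. A CCAAT box and a CHR can share a base where they abut, and none of those printed do.
KIF26A: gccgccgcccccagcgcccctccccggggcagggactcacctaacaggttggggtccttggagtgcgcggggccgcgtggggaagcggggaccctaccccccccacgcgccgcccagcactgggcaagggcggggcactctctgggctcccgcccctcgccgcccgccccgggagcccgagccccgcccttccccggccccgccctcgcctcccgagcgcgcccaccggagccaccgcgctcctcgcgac
KIF23: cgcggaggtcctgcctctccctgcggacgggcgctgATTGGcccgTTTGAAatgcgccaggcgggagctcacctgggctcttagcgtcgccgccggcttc
KIF20A: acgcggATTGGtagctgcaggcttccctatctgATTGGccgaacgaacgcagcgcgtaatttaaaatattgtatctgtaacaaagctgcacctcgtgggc
KIF20B: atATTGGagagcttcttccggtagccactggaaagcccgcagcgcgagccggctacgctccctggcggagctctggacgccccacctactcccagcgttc
KIF11: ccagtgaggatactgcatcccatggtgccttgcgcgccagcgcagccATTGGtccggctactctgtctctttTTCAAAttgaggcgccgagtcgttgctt
KIF18A: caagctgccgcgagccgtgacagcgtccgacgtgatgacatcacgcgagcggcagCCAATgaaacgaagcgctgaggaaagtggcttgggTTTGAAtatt
KIF22: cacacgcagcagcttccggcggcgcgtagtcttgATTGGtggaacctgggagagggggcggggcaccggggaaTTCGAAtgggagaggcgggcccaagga
KIF4A: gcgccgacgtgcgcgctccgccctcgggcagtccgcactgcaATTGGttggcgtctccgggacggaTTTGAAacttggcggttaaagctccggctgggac
KIFC1: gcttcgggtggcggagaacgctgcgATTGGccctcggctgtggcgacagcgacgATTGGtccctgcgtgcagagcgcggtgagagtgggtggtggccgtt

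The first of these covers the 250 bases before the start of KIF26A (chr14:104138337-104138586, plus strand), and the others cover 100 bases. They lie at chr15:69414249-69414348, plus strand for KIF23; chr5:138179012-138179111, plus strand for KIF20A; chr10:89701490-89701589, plus strand for KIF20B; and chr10:92593030-92593129, plus strand for KIF11. Those of KIF18A, KIF22, KIF4A and KIFC1 lie at chr11:28108157-28108256, minus strand, at chr16:29790651-29790750, plus strand (the first of 2 listed starts), at chrX:70290004-70290103, plus strand and at chr6:33391723-33391822, plus strand. In KIF23 a CCAAT box begins 64 bases and a CHR 55 bases before the start. In KIF11 these distances are 53 and 28 bases, in KIF18A 45 and 10, in KIF22 66 and 27, and in KIF4A 58 and 34. KIF20A and KIFC1 each have a pair of CCAAT boxes and no CHR by these letters in the window. No capital stands in the KIF26A sequence, which is 80.8% G or C and holds 31 CG dinucleotides.

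RefSeq promoters were matched for 33 of the 41 genes, with 42 starts between them. Over the 250 bases upstream, CCAAT stood in 11 of the 14 promoters of mitotic kinesins (78.6%), in 9 of the 28 promoters of the other kinesins (32.1%) and in 11240 of all 35116 promoters of the table, a share like that of the other kinesins. The CHR letters stood in 7 of the 14 mitotic promoters, in 1 of the 28 others (3.57%, KIF5B) and in 14.3% of all promoters. Both elements stood in 5 of the 14 mitotic promoters (35.7%), against 5.05% of all promoters. The letters CAAAGNNCA, a short form of the HNF4 site with N for any base, stood in 0 of the 42 kinesin promoters and in 4.44% of all promoters. These matches describe letters in a window and no binding was measured at them here.

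The libraries were checked on the targeted gene and on markers of cell types. HNF4A had 4129 and 3938 normalized counts in the control libraries and 1140 and 932 after knockdown, or 25.7% of control (log2 fold change -1.97, adjusted p = 1.59e-05 in limma). Normalized counts, read counts per gene normalized by the authors, summed to between 17912507 and 18613685 per library. The epithelial markers EPCAM, KRT8, KRT18, KRT19 and CDH1 together had 75840 and 78607 normalized counts in the control libraries and 69191 and 69099 in the knockdown libraries; 4 of the 5 were called, 3 lower and KRT19 higher, beside 18.6% of the tested genes that average 100 or more. The part of this shift in the kinesin values was not tested. PTPRC, which marks all leukocytes, was between 0 and 2.05 and CD79A, of B cells, at most 2.09, while CD68, known from macrophages but not limited to them, was between 28.5 and 64.4 with overlapping groups. In addition, the fibroblast markers COL1A1, COL1A2, DCN and PDGFRB summed to 210 and 132 in the controls and to 238 and 235 in the knockdown. Most of this was COL1A1, with 179 and 108 in controls, against 202 and 211.5 with siHNF4A. COL1A1 was not called (log2 fold change 0.57, adjusted p = 0.128 in limma). Of the neuronal markers RBFOX3 and SYT1, which summed to between 204 and 245, nearly all was SYT1. In the squamous pair, KRT5 and KRT14 summed to at most 36.2 in any library. Both passed the minimum through 1 group only: KRT5 had a mean of 22.4 in the controls and 8.33 in the knockdown, and KRT14 one of 1.46 and 19.0. More genes were listed at 0 in the control libraries (5479 and 5640) than in the knockdown libraries (4260 and 4362), and the part of this in the changes of low kinesin genes was not tested.

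Of the 41 kinesin genes 35 averaged 10 or more normalized counts across the 4 libraries and were tested with limma across 15577 genes. A gene was called at a Benjamini-Hochberg adjusted p under 0.05. KIF26A, chosen for its fall, is left out of the counts of calls. Of the 34 other kinesin genes tested 9 were called (26.5%), 4 higher and 5 lower in the knockdown, where 14.1% of all tested genes were called, 6.02% higher and 8.11% lower. Genes with high values are called more often: with a mean of at least 100, 18.6% of all genes and 6 of 28 kinesins other than KIF26A (21.4%) were called. KIF1A, KIF6 and KIF26B passed the minimum of 10 through 1 group only, so a test of them is biased towards a difference; among the 31 kinesins other than KIF26A that passed in both groups, 7 were called (22.6%), 3 higher and 4 lower. The median log2 fold change of the 34 genes was -0.054, against -0.0073 for all tested genes. In 22 of the 31 kinesins that passed in both groups (71.0%) the knockdown libraries did not overlap the control libraries, 15 of them lower and 7 higher, a pattern that 57.0% of all tested genes had. No kinesin other than KIF26A, KIF1A and KIF6 had a log2 fold change of 1 or more in size. The calls depend on the model. With no filter on low values KIF23 and KIF1C were the only 2 called besides KIF26A, so genes far above the minimum lost their calls as well as KIF1A and KIF6. Without limma's variance trend no kinesin was called (0, with 9 at an unadjusted p under 0.05, KIF26A included), nor was HNF4A (adjusted p = 0.0919). These losses are not repeated for every gene below.

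**Figure D1:**
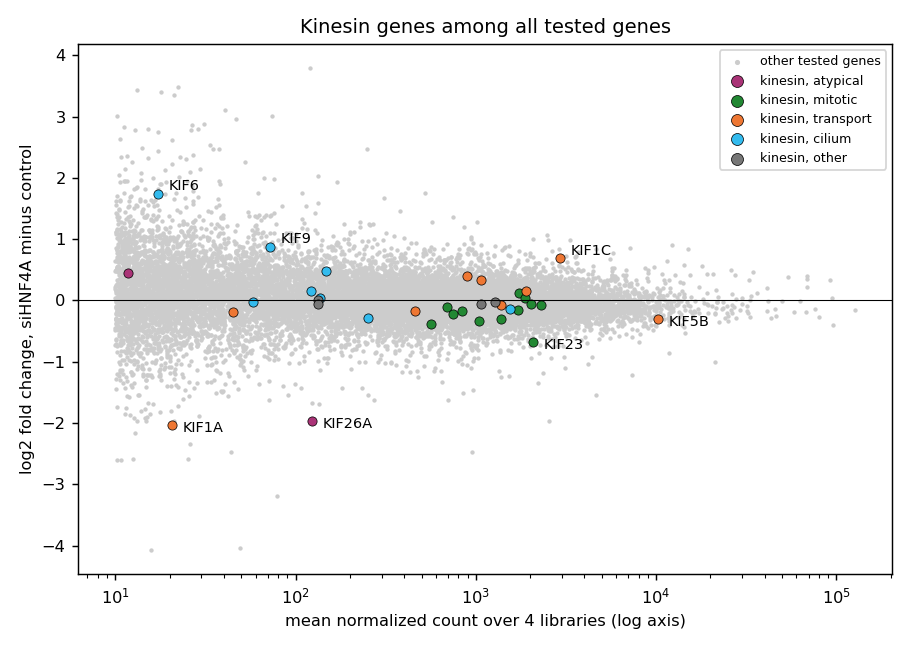
Each point is a gene tested, with its mean normalized count over the 4 libraries on a log x axis and its log2 fold change (siHNF4A minus control) on the y axis; kinesin genes are coloured by role and all other tested genes are grey. KIF26A at -1.97 and KIF1A at -2.03 lie far below the other kinesins, and KIF6 at 1.74 far above, while the others lie between -0.67 and 0.88.

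KIF26A had 200.4 and 191 normalized counts in the control libraries and 43.0 and 56.7 in the knockdown libraries. Both knockdown values lay far below both control values, at 22.0% and 28.9% of the control mean. On average KIF26A fell from 196 ± 6.36 (SD, n = 2) to 49.9 ± 9.65 (SD, n = 2), which is 25.4% of the control level. On the log2 scale the difference was -1.97 (standard error 0.21). Among all 15577 tested genes this was the fall of rank 14. The value lay between -2.04 and -1.88 under the alternatives with all 4 libraries and between -2.16 and -1.77 with 1 library left out. KIF26A lies on chromosome 14, and its start overlaps the divergent transcript KIF26A-DT in RefSeq. Whether the counting used strand is not given in the sources used here.

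Of the 5 tested genes before and the 5 after it in RefSeq gene order, 1 was called, AKT1, which was higher in the knockdown, beside 14.1% of all tested genes. The log2 fold changes of the 10 neighbours lay between -0.15 and 0.35. One of these neighbours is KLC1, a kinesin light chain that links KIF5 motors to cargo, with a log2 fold change of 0.060 (adjusted p = 0.648 in limma).

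KIF26B, the paralog of KIF26A, was near the lower limit of measurement. It had 8.26 and 11.3 normalized counts in the control and 13.5 and 13.7 in the knockdown. The knockdown values were the higher ones, but the log2 fold change of 0.45 had a 95% interval from -0.61 to 1.52 (adjusted p = 0.581 in limma). A rise of KIF26B, or a fall of up to 0.61 on the log2 scale, is within that interval. GRB2, the adaptor that KIF26A is known to bind, did not pass the threshold, with a log2 fold change of -0.10 (adjusted p = 0.443 in limma).

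The mitotic kinesins were compared with KIF26A as motors of dividing cells. The table holds 13 such genes, of which 12 were tested, and 3 of the 12 were called, all of them lower, beside 14.1% of all tested genes and 18.6% of those with a mean of at least 100: KIF23, KIF20A and KIF20B. For 10 of the 12 the log2 fold change was negative, with a median of -0.16 and a range from -0.67 for KIF23 to 0.12 for KIFC1. The lowest of them, KIF23, stood at 62.7% of its control level, against 25.4% for KIF26A. The difference between the 2 genes was not tested. Knockdown libraries lay below both controls for 9 of the 12 genes, above both for KIF4A, and overlapped them for KIF15 and KIFC1, beside 57.0% of all tested genes whose groups did not overlap. The summed level of the 13 genes was 18147 and 17853 in controls, against 16148 and 15770 with siHNF4A, which is 88.7% of the control mean.

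**Figure D2:**
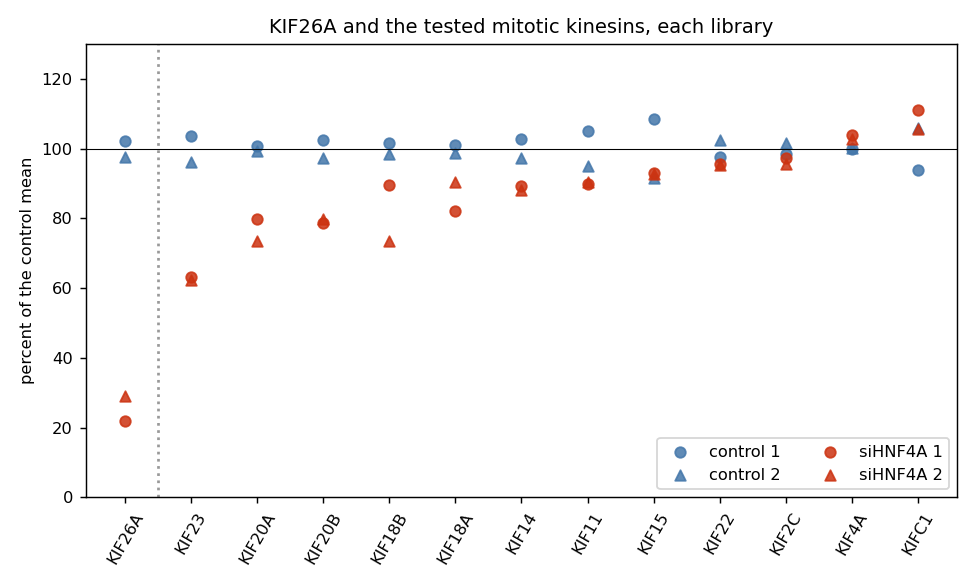
The y axis gives each library's normalized count as a percent of the control mean, from 0, for KIF26A (left of the dotted line) and the 12 tested mitotic kinesins; blue points are the 2 control libraries and red points the 2 knockdown libraries. KIF26A stands at 22.0% and 28.9% in the knockdown, KIF23 at 63.1% and 62.2%, and the other mitotic kinesins between 73.4% and 111%.

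KIF23, or MKLP1, is the motor of centralspindlin, the complex that bundles microtubules between the separating chromosomes and positions the cleavage furrow. It had 2641 and 2451 normalized counts in controls, against 1607 and 1584 with siHNF4A. The 4 values fell into separate pairs with little spread in the knockdown. KIF23 fell by 0.67 on the log2 scale, with standard error 0.072 (adjusted p = 5.18e-04 in limma). It remained called with any 1 library left out, with log2 fold changes between -0.73 and -0.62. Its partner in centralspindlin, RACGAP1, had 1943 and 1943 normalized counts in controls, against 1889 and 1758 with siHNF4A, with an adjusted p of 0.446 in limma, above the threshold. How far the changes of the 2 genes differ was not tested. KIF23 overlaps the antisense gene KIF23-AS1 in RefSeq.

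KIF20A, or MKLP2, brings the chromosomal passenger complex to the central spindle. It had 645 and 636 normalized counts in controls, against 511 and 470.4 with siHNF4A. The groups did not overlap, and KIF20A fell by 0.38 on the log2 scale (standard error 0.10, adjusted p = 0.0347 in limma). KIF20B, which acts in the last steps of cytokinesis, had 1194 and 1135 in controls, against 916 and 931 with siHNF4A. It fell by 0.33 on the log2 scale (standard error 0.083, adjusted p = 0.0257 in limma). Both calls were near the threshold. The call of KIF20A was lost with any 1 of the 4 libraries left out (adjusted p from 0.0636 to 0.179 in limma) and with libraries rescaled to equal totals (0.0516). In RefSeq KIF20A overlaps the gene CDC23. The call of KIF20B was lost without control 1 (0.0750), without siHNF4A 1 (0.113) and without siHNF4A 2 (0.0947).

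The remaining mitotic motors were not called. KIF18A and KIF18B, which shorten or restrain microtubule plus ends, came nearest. KIF18B had 1547 and 1498 normalized counts in controls, against 1365 and 1118 with siHNF4A, a log2 fold change of -0.30 (adjusted p = 0.0747 in limma). Its knockdown libraries differed from each other by more than its controls did. KIF18A stood at 86.3% of its control level (adjusted p = 0.172 in limma). KIF11, or Eg5, the motor that pushes the spindle poles apart, had 1896 and 1714 in controls, against 1621 and 1632 with siHNF4A, with a log2 fold change of -0.15 and a 95% interval from -0.32 to 0.025. KIF15, which can act beside KIF11, stood at 92.9% of its control level, and KIF14, a cytokinesis motor, at 88.8%.

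The chromosome motors KIF22, KIF2C and KIF4A had the log2 fold changes nearest 0 among the mitotic kinesins. KIF22, which moves chromosome arms, had 2289 and 2402 normalized counts in controls, against 2240 and 2235 with siHNF4A. Its log2 fold change of -0.068 had a 95% interval from -0.22 to 0.083 (standard error 0.068, adjusted p = 0.561 in limma). KIF2C, or MCAK, which depolymerizes microtubules at the centromere, had 2031 and 2097 in controls, against 2009 and 1973 with siHNF4A. Its log2 fold change of -0.052 had an interval from -0.21 to 0.10 (standard error 0.069, adjusted p = 0.671 in limma). KIF4A, a motor of chromosome arms and of the central spindle, had 1833 and 1837 in controls, against 1906 and 1888 with siHNF4A, with an interval from -0.11 to 0.20. KIFC1, which focuses the spindle poles, had 1572 and 1774 in controls, against 1858 and 1766 with siHNF4A, so its groups overlapped. KIF4B, a near copy of KIF4A without introns, had at most 3.04 normalized counts in any library and was not tested. No row of the RNA-seq table analysed here carried the symbol KIF2B, so it was not analysed.

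Presence of both promoter elements did not separate the called from the uncalled mitotic kinesins. Of the 5 genes with CCAAT and CHR in the upstream window, KIF23 was called and KIF11, KIF18A, KIF22 and KIF4A were not. KIF20A and KIF20B had CCAAT only. With so few genes this is a description.

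Of 18 genes that work with mitotic kinesins, all tested, 3 were called (16.7%, beside 14.1% of all tested genes and 18.6% of those with a mean of at least 100, which all 18 have), 2 lower and 1 higher, with a median log2 fold change of -0.063. CDCA8 and BIRC5, both subunits of the chromosomal passenger complex, went in opposite directions: CDCA8 had 2423 and 2574 normalized counts in controls, against 2156 and 2030.5 with siHNF4A (adjusted p = 0.0409 in limma), and BIRC5 had 1657 and 1702 in controls, against 2290.4 and 2037 with siHNF4A (adjusted p = 0.0148). The other subunits AURKB and INCENP were not called, with log2 fold changes of 0.020 and 0.061. KNSTRN, a spindle protein, fell by 0.29 on the log2 scale (adjusted p = 0.0449 in limma). PRC1, which recruits KIF4A, and TPX2, which binds KIF11 and KIF15, had log2 fold changes of 0.11 and 0.0015 and were not called. CENPE, a kinetochore kinesin whose symbol has no KIF name, had a log2 fold change of -0.051.

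Of 22 genes of proliferation at large 7 were called (31.8%, beside 14.1% of all tested genes and 18.6% of those with a mean of at least 100, which all 22 have), all of them lower. A negative log2 fold change was found for 20 of the 22 and for 7945 of all 15577 tested genes, and the median log2 fold change was -0.18, close to the -0.16 of the mitotic kinesins. The 7 were MKI67, MCM4, MCM6, CCNA2, CDK1, AURKA and FOXM1. FOXM1, a factor that activates genes of mitosis, fell by 0.34 on the log2 scale and CDK1 by 0.31 (adjusted p = 0.0106 and 0.00849 in limma). The summed level of the 22 genes was 73955 and 73902 in controls, against 67134 and 63255 with siHNF4A. In bulk samples fewer dividing cells and less mRNA per dividing cell cannot be told apart, and the part of these genes' shift in the mitotic kinesin values was not tested.

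**Figure D3:**
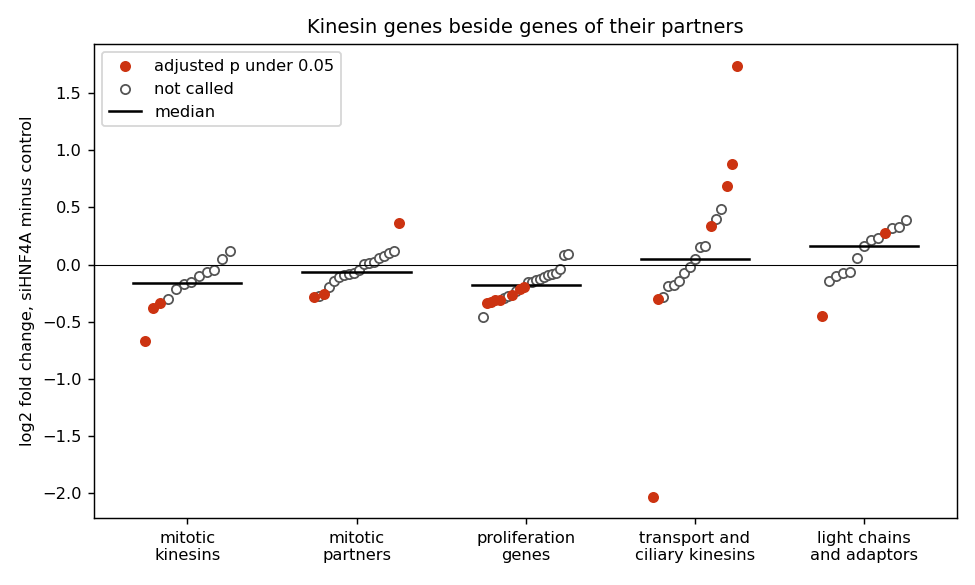
Each point is 1 tested gene of a group, in order of its log2 fold change (siHNF4A minus control, y axis); red points passed an adjusted p under 0.05 in limma, open points did not, and the line is the group's median. The medians lie at -0.16 for mitotic kinesins and -0.18 for proliferation genes, while transport and ciliary kinesins spread from -2.03 (KIF1A) to 1.74 (KIF6), both of which passed the minimum through 1 group only.

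Of the 8 transport kinesins that passed the minimum in both groups 3 were called, KIF1C and KIF16B higher and KIF5B lower, beside 6.02% of all tested genes called higher and 8.11% lower. Their median log2 fold change was 0.039, and -0.077 with KIF1A, which passed through the controls only. Levels of the group as a sum were 18871 and 19112 normalized counts in controls, against 18516 and 19128 with siHNF4A, so the groups overlapped in the sum.

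The KIF1 genes are motors of vesicles and organelles. KIF1C, which carries dense-core vesicles and integrins, had 2200.4 and 2274 normalized counts in controls, against 3835 and 3399 with siHNF4A. Both knockdown libraries stood far above both controls, at 162% of the control level on average. KIF1C rose by 0.69 on the log2 scale, with standard error 0.075 (adjusted p = 5.38e-04 in limma), and it remained called with any 1 library left out. In RefSeq it overlaps the antisense gene KIF1C-AS1. KIF1B, which carries mitochondria and synaptic vesicle precursors, had 1770 and 1811 in controls, against 1953 and 2035 with siHNF4A. Its log2 fold change of 0.15 was not called (95% interval -0.0027 to 0.31, adjusted p = 0.180 in limma). KIF1A, the motor of synaptic vesicle precursors in neurons, was low: 34.4 and 31.3 in the controls, 12.8 and 3.97 in the knockdown.

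The log2 fold change of KIF1A was -2.03, with a wide standard error of 0.53. Its call in limma (adjusted p = 0.0318) is not read as support, since the knockdown mean of 8.37 was under the minimum and the gene was tested only through its high group; with no filter on low values the adjusted p was 0.146. Its knockdown libraries stood at 38.8% and 12.1% of the control mean, so the size of the fall rested on low values that differed between libraries. Without siHNF4A 2 the log2 fold change of KIF1A was -1.30 and no longer called (adjusted p = 0.145 in limma).

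KIF5B, the conventional kinesin heavy chain of most cells, had 11244 and 11279 normalized counts in controls, against 8519 and 9809 with siHNF4A. Both knockdown libraries were lower, by unequal amounts. KIF5B fell by 0.30 on the log2 scale (standard error 0.068, adjusted p = 0.0170 in limma). The call was lost after quantile normalization (log2 fold change -0.23, adjusted p = 0.0576 in limma) and without siHNF4A 1 (-0.20, adjusted p = 0.140). The neuronal heavy chains KIF5A and KIF5C had at most 5.92 and 5.19 normalized counts in any library and were not tested, and KIF5C was listed at 0 in control 2.

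KIF16B, which carries early endosomes, had 884 and 990.5 normalized counts in controls, against 1177 and 1195 with siHNF4A. It rose by 0.34 on the log2 scale (standard error 0.089, adjusted p = 0.0316 in limma). The call held without control 2 (adjusted p = 0.0114 in limma) and was lost without control 1 (0.110), siHNF4A 1 (0.109) or siHNF4A 2 (0.134). KIFC2, a minus-end directed motor, had 765 and 768 in controls, against 1153 and 888 with siHNF4A. Its log2 fold change of 0.40 narrowly missed the threshold (adjusted p = 0.0533 in limma), and it was called in 8 of the 13 alternatives. KIF13A, KIF13B and KIFC3 stood at 94.8%, 88.4% and 87.4% of their control levels, with both knockdown libraries below both controls, and were not called.

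**Figure D4:**
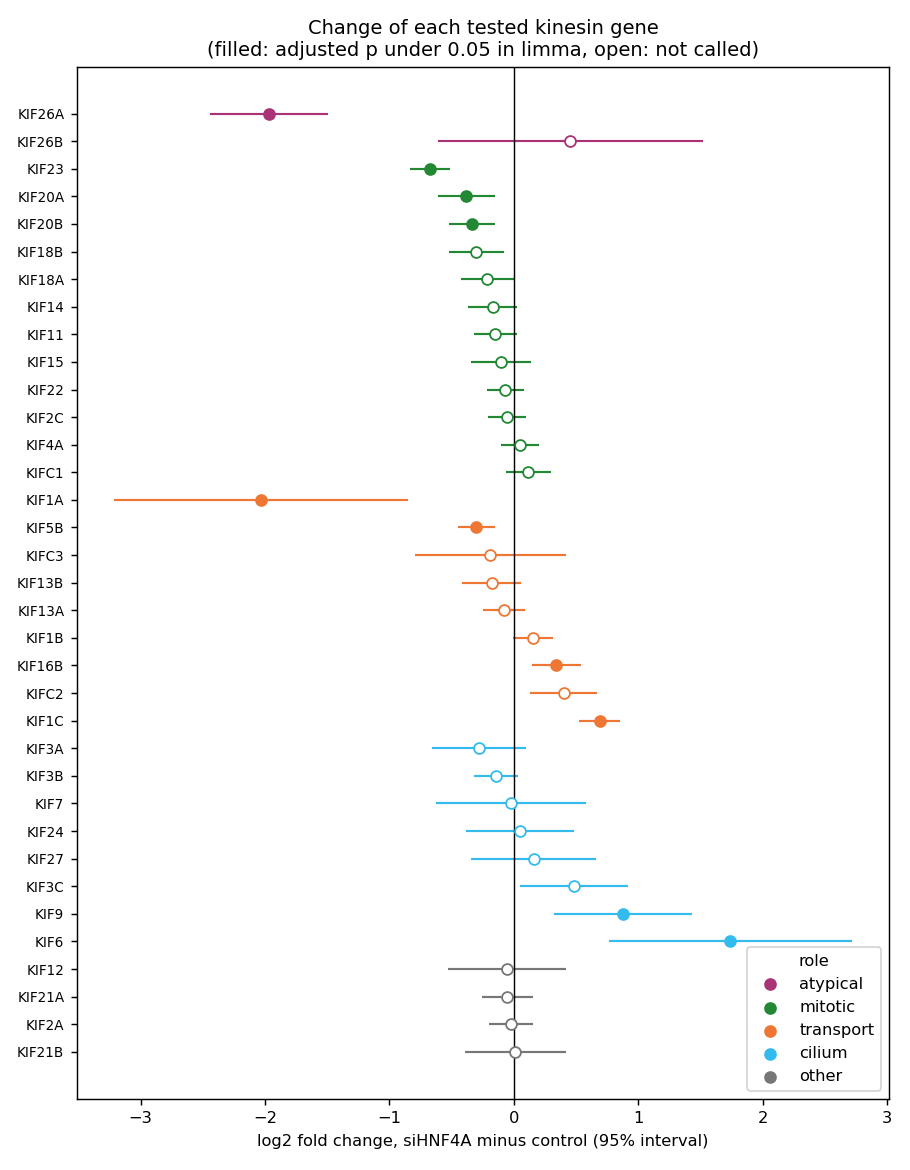
Points give the log2 fold change (siHNF4A minus control, x axis) of the 35 tested kinesin genes and bars its 95% interval in limma; colours give the role, and filled points are genes with an adjusted p under 0.05. The bars of KIF23 and KIF1C lie apart from 0, and those of KIF1A, KIF6 and KIF26B, which passed the minimum through 1 group only, are wide; KIF26A was chosen for its fall, so its bar is no test.

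Of 13 tested light chains and adaptors, which tie motors to cargo or regulate them, 2 were called (15.4%), beside 14.1% of all tested genes and 18.6% of those with a mean of at least 100. KIAA1279, now named KIFBP, binds the motor domain of several kinesins and keeps them off microtubules. It had 1417 and 1492.5 normalized counts in controls, against 1063 and 1065 with siHNF4A, and fell by 0.45 on the log2 scale (adjusted p = 0.00542 in limma). PLEKHM2, which links lysosomes to KIF5B, had 1332 and 1411 in controls, against 1727 and 1594 with siHNF4A (log2 fold change 0.28, adjusted p = 0.0468 in limma). KLC1, KLC2 and KLC4 had log2 fold changes of 0.060, -0.14 and 0.32, and KLC3 had under 10 normalized counts on average.

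Of the 7 ciliary kinesins that passed the minimum in both groups 1 was called, KIF9, which was higher in the knockdown; this share (14.3%) is near the 14.1% of all tested genes. Their median log2 fold change was 0.046, and 0.10 with KIF6, which passed through the knockdown only. KIF9, a motor of the central apparatus of motile cilia, had 42.6 and 58.6 normalized counts in controls, against 88.9 and 96.6 with siHNF4A. It rose by 0.88 on the log2 scale (standard error 0.25, adjusted p = 0.0430 in limma). The call was lost after quantile normalization (0.0713). It held without control 2 (0.0148) and was lost without control 1 (0.124), siHNF4A 1 (0.137) or siHNF4A 2 (0.203). KIF9 overlaps the antisense gene KIF9-AS1, which had 18.3 and 16.7 in controls, against 22.4 and 14.2 with siHNF4A, so its groups overlapped.

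KIF6, which is found at motile cilia, had 8.59 and 6.26 normalized counts in controls, against 25.97 and 27.9 with siHNF4A. The pairs were well apart, with a log2 fold change of 1.74 (standard error 0.44). Its call in limma (adjusted p = 0.0272) is not read as support, since KIF6 was tested only through its high group; with no filter the adjusted p was 0.0933, and the call was also lost without siHNF4A 1 (0.138) or siHNF4A 2 (0.166). KIF3A and KIF3B form, with the subunit KIFAP3, the motor that builds the cilium. KIF3B had 1554 and 1692 in controls, against 1448 and 1487 with siHNF4A (log2 fold change -0.14, adjusted p = 0.256 in limma). KIF3A had 282 and 268 in controls, against 193 and 265 with siHNF4A (-0.28, adjusted p = 0.311), and KIFAP3 had a log2 fold change of -0.066.

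The other ciliary kinesins were not called. KIF3C, a relative of KIF3B that pairs with KIF3A in neurons, had 118 and 127 normalized counts in controls, against 148 and 199 with siHNF4A (log2 fold change 0.48, adjusted p = 0.131 in limma). KIF7, which works on the GLI factors of Hedgehog signalling at the cilium tip, stood at 96.6% of its control level. Of its partners, SUFU had a log2 fold change of 0.24 and was not called, and GLI1 and GLI2 had at most 1.22 and 5.63 normalized counts in any library. KIF24, which restrains cilium growth, and KIF27, a relative of KIF7, stood at 104% and 109%. KIF17 and KIF19 had at most 6.16 and 3.79 and were not tested.

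**Figure D5:**
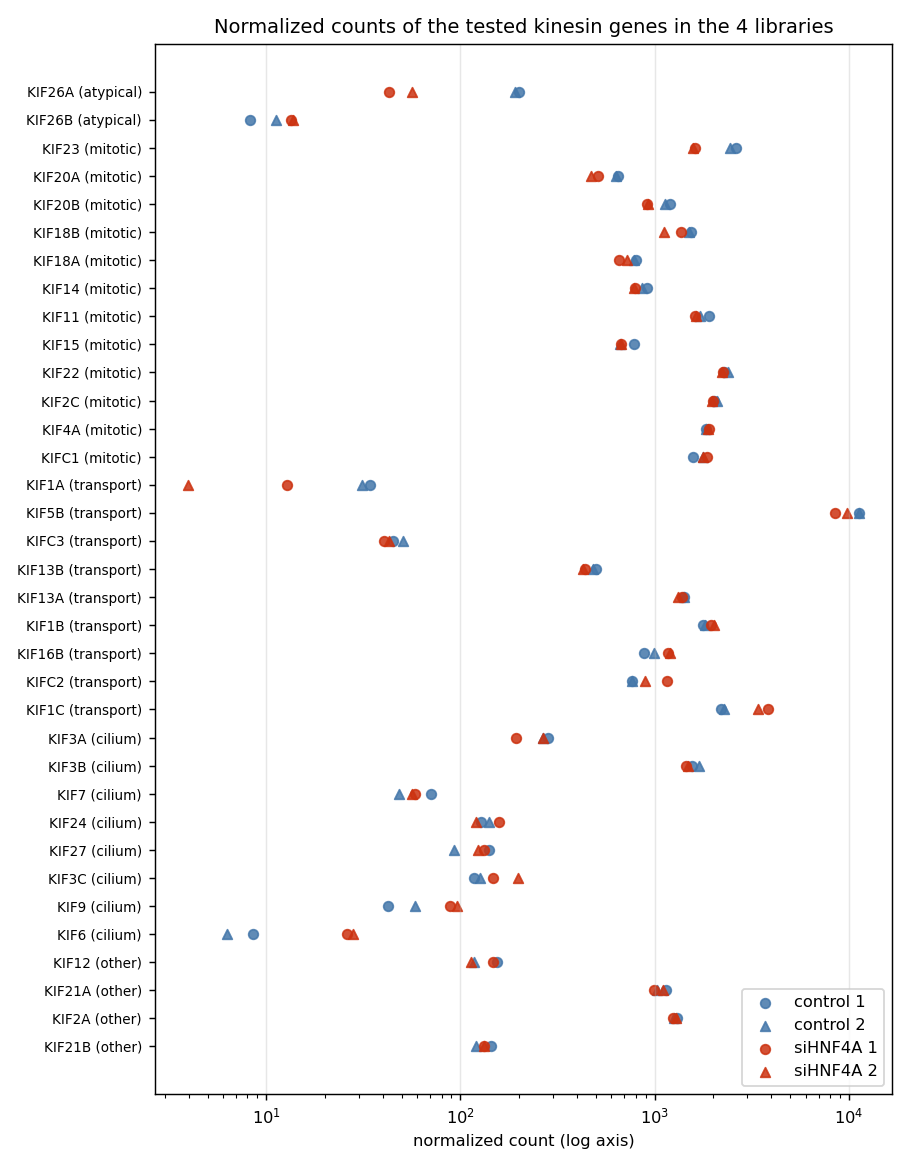
Normalized counts of the 35 tested kinesin genes in each library, on a log x axis, with control libraries in blue and knockdown libraries in red and the role of each gene in brackets. KIF26A moves from near 200 in the controls to 43.0 and 56.7. The 12 tested mitotic kinesins lie between 470.4 and 2641 in all libraries, and these counts are not read as a ranking of expression between genes.

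The kinesins of other roles were not called. KIF2A, a microtubule depolymerase, had 1310 and 1254.5 normalized counts in controls, against 1238 and 1287 with siHNF4A. KIF21A and KIF21B, which pause microtubule growth, stood at 96.6% and 100.4% of their control levels. KIF12, a kinesin of kidney and liver epithelium, had 154 and 117 in controls, against 147 and 113 with siHNF4A, a log2 fold change of -0.056 with a 95% interval from -0.53 to 0.42. The groups overlapped for all 4 of these genes, and none was called (adjusted p from 0.765 to 0.976 in limma). KIF25 had between 5.07 and 6.39 normalized counts and was not tested. Counts of different genes are not read as a ranking of their expression, since no values per transcript length are given.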

How the data were processed

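RNA-seq of 2 siHNF4A and 2 control libraries of ESO26 cells was analysed; groups and numbers come from the titles. Values are normalized counts, a signal that the authors deposited after normalization by a method not given in the sources used here. The submitters' processing notes list Bowtie, Bowtie2, Trim Galore, Picard and MACS2 and the build hg19 for the series, with no role for the RNA. Absolute depth is unknown, so no counting intervals are given. Peak lists in hg19 were not used here, as no gene annotation of that build was at hand.

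Log2(normalized count + 1) was fitted with limma 3.58.1 (R 4.3.3; lmFit, eBayes with an intensity trend) over every gene averaging 10 or more, without a block. P-values were adjusted over all 15577 genes (Benjamini-Hochberg), and fold changes understate low genes. At 2 against 2, the smallest exact two-sided permutation p for 1 gene is 0.333. The script was tested on simulated data drawn with an assumed variance trend, and this is not used as support for any call. Members, lists and motifs were chosen with earlier results of these data known. Described in full are KIF26A, KIF26B, the called kinesins, the 3 mitotic kinesins with the highest means and called genes of the partner lists; other members are given by level. Alternatives were quantile normalization, 2 rescalings, pseudocounts of 0.5 and 5, no filter, a minimum mean of 50, no variance trend, a replicate block and leaving out each library.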

Additional observations from a re-analysis of the deposited data

How the results depend on the processing

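The count of called kinesins was 10, counting KIF26A, KIF1A and KIF6, whose calls are not read as support. It was between 9 and 12 with quantile normalization, either rescaling, either pseudocount, the minimum mean of 50 and the replicate block. In the same settings that of mitotic kinesins, 3, was between 2 and 4. Shares of all tested genes called under each alternative are not given here. The counts in this section therefore do not show whether kinesins moved apart from other genes. With no filter on low values 3 kinesins remained called, 1 of them mitotic: KIF23, KIF1C and KIF26A, whose call is no support since it was chosen for its fall. This setting adjusts over more genes and also refits the variance trend on them. Why calls were lost with it was not tested. Without the variance trend limma called 0 kinesins and 0 mitotic kinesins, although 9 and 3 had an unadjusted p under 0.05; the cause was not tested. With 1 library left out, between 5 and 10 kinesins and between 1 and 2 mitotic kinesins were called, where the lone library of a group is assumed to vary like the others. Among these 4 fits the lowest kinesin counts were those without siHNF4A 1 and without siHNF4A 2.

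The median of the mitotic kinesins, -0.16, was -0.11 after quantile normalization, -0.12 with equal totals, -0.14 with upper-quartile rescaling, -0.17 with no filter and between -0.22 and -0.12 with 1 library left out, and it kept its sign in each. Rescaling to equal totals moved the median of all genes from -0.0073 to 0.032. No sign of the 14 genes followed through the alternatives, HNF4A among them, changed in any alternative that gave a value; KIF1A, KIF6 and KIF26B gave none with the minimum mean of 50.

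The replicate block gave 12 called kinesins, adding KIF18B and KIFC2, and 4 mitotic ones. Of the 13 alternatives, 8 called KIFC2 and 2 called KIF18B. Libraries of the same number did not deviate together (correlation of deviations -0.019 over 15577 genes), and the shared numbers were treated as names only.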
